A study of Saccharomyces cerevisiae with 8 samples.

Results

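The 42 genes described here encode the yeast machinery that copies DNA at the replication fork, holds sister chromatids together and repairs mismatches left by the polymerases. They were chosen by name from the 6547 features of the deposited table, and all 42 were found. Messenger RNA was sequenced from 2 strains of budding yeast (Saccharomyces cerevisiae), the wild type WFA72 (WT) and WFA73, whose genotype is given as mec1 with no allele or further mutation named. Cultures in log phase were held in G1 by alpha factor, the mating pheromone (G1), released for 1 h into 200 mM hydroxyurea (HU), and then moved by filtration to medium without the drug for 30 min (R30) or 60 min (R60). All 8 libraries therefore come from pheromone-arrested cultures, and each strain and time has 1 library, so differences between single libraries have no replicate check. Nothing in the labels says whether the 4 times of a strain come from 1 culture.

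At a replication fork, polymerase alpha with primase starts each strand, and polymerases epsilon and delta extend it on the sliding clamp PCNA, which replication factor C loads. Replication protein A (RPA) coats exposed single strands, and cohesin rings join the sister chromatids as the fork passes. Many of these genes are transcribed late in G1 by MBF, a factor made of Mbp1 and Swi6 that binds the sequence ACGCGT, known as the MluI cell cycle box. Hydroxyurea inhibits ribonucleotide reductase and starves forks of deoxyribonucleotides, and Mec1, the yeast counterpart of the kinase ATR, starts the checkpoint response to stalled forks.

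Upstream sequence was read from RefSeq's R64 genome for every member, because ACGCGT is the feature most of them share. Within 300 bases before the start codon, ACGCGT occurred for 30 of 42 members (71.4%), against 209 of 6007 genes with such a window (3.5%). It reads the same on both strands, so each occurrence was counted once. At least 2 copies were present for 11 members, and for 23 of all genes. The 41 sites in members lay at a median of 137 bases before the start codon, between 5 (TOP1) and 287 bases (MCD1). CACGAAA, the box of the related factor SBF, searched on both strands, occurred for 1 member, RFC1, against 270 of all genes (4.5%). A match is a description of letters and not a binding site.

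The members below are those whose values are given in full and that hold 2 copies. Each stretch is 200 bases long, reads 5′ to 3′ on the coding strand, ends 100 bases before the start codon, and capitals mark ACGCGT.
RFA1, chrI:158720-158919, minus strand: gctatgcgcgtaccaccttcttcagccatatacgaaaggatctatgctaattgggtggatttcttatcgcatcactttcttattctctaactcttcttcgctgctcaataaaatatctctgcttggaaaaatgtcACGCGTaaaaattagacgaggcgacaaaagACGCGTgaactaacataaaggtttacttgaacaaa
RFA2, chrXIV:47987-48186, plus strand: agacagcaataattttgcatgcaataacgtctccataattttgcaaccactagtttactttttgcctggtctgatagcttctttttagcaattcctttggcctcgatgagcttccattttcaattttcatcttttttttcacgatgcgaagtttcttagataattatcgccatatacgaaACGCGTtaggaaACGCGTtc
TOF1, chrXIV:122583-122782, plus strand: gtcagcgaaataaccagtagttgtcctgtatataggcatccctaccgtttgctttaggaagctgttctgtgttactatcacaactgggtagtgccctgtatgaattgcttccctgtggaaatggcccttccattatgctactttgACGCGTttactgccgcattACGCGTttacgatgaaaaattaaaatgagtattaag
RAD27, chrXI:225976-226175, minus strand: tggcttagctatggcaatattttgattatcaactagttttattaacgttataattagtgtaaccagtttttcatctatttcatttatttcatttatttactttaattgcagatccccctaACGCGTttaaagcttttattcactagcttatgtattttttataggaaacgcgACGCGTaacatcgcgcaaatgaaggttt
CDC21, chrXV:467690-467889, minus strand: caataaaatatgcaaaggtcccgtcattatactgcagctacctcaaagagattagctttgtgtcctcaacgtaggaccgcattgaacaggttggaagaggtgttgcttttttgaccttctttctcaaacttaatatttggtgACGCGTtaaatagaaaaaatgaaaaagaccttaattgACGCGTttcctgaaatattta
ASF1, chrX:195987-196186, plus strand: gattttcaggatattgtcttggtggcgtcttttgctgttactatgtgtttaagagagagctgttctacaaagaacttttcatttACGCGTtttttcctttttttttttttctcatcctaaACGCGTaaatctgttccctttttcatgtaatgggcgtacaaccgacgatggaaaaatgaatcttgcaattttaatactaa

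Members with 1 copy whose values are also given in full are shown as 30 bases around the site, on the coding strand, with ACGCGT again in capitals. RFC5 and CAC2, the other members given in full, hold none in the window.
POL30, chrII:425944-425973, minus strand: ccaaaacgcgaaACGCGTaacttttttttt
CSM3, chrXIII:366897-366926, plus strand: aataataaactgACGCGTaacaagatcaat
MCD1, chrIV:444383-444412, plus strand: gaggagggACGCGTcgagaaaatcgcgtct
SMC1, chrVI:119295-119324, plus strand: aaagtatcaataACGCGTaaagtgaataga
PDS5, chrXIII:420180-420209, minus strand: tgtcgcgacgcgACGCGTaaagttgtataa

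Values are in RPM, reads scaled to the same total in every library, averaged by the authors over windows that cover the gene and up to 1000 bp beside it, so that reads of neighbouring genes count towards a gene. A gene's own reads were therefore also estimated with the neighbours separated, and such values are called separated below. The members' own reads made up a median of 49.2% of their deposited values, from 8.92% (ELG1) to 92.0% (ASF1), and 50% or more for 21 members. The RPM scale rests on 1596132 reads in WT HU, the shallowest library, to 3935979 in mec1 G1. Differences are log2(value + 1), intervals are 95% intervals for counting error only, and the libraries are single. In a culture, fewer cells of a cell cycle stage and less RNA per cell cannot be told apart.

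Markers of pheromone arrest and of the hydroxyurea response followed the labelled times, though for HUG1 and RNR3 in part only with neighbours separated. The S-phase histone genes did not do so throughout. HTA1 was at 270, 173, 298 and 281 RPM in WT at G1, HU, R30 and R60, and HTB1 at 122, 126, 205 and 159 RPM. In mec1, HTA1 was at 384, 279, 262 and 305 RPM and HTB1 at 204, 148, 159 and 193 RPM, both highest at G1. FUS1, induced by pheromone, was at 204 and 167 RPM in the G1 libraries of WT and mec1 and at 21.3 to 60.2 RPM in the other 6. At G1, HU, R30 and R60, HUG1, a checkpoint target, was at 76.6, 445, 491 and 219 RPM in WT. In mec1 it was at 7.67, 37.7, 38.6 and 22.2 RPM, so R30 lay slightly above HU in both strains. HUG1 shares windows with SML1 and has 38.4% own reads. Separated, HUG1 was at 0, 543, 367 and 207 RPM in WT and at 0.554, 29.2, 27.9 and 14.4 RPM in mec1, highest in HU. RNR3, another hydroxyurea marker, was at 14.0, 130, 21.4 and 15.6 RPM in WT and at 14.3, 29.9, 31.7 and 29.4 RPM in mec1. MEC1 itself had 36.2, 90.3, 35.7 and 38.7 RPM in WT, and in mec1 77.1, 124, 83.9 and 76.6 RPM, so each mec1 library lay above the WT library of its time. Separated, MEC1 was at 0 to 0.918 RPM in the WT libraries and at 48.8 to 62.4 RPM in the mec1 libraries, an estimate that rests on own reads of 16.6% or less of the deposited values. The direction is opposite to that of a lost transcript. The allele is not named, and the level of MEC1 therefore does not check the genotype. HUG1 was lower in mec1 than in WT in HU, the direction of the labels. The deposited values also differed that way at G1, before hydroxyurea, but separated HUG1 was then at 0 RPM in WT and 0.554 RPM in mec1. The estimate thus assigned the WT reads at G1 to neighbouring genes that share its windows. WT and mec1 below mean the libraries so labelled.

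In the WT libraries most members alternated, with HU above G1, R30 below HU and R60 above R30. That order was found for 27 of 42 members (64.3%), against 19.8% of all 6504 features tested. In 22 of the 27, R60 was also the highest WT library (5.98% of all features), and in the other 5, RFA2, DPB11, MSH6, CTF18 and SLD3, it was HU. R60 was the highest WT library for 34 members, against 19.4% of all features, and R30 the lowest for 21, against 21%. The mec1 libraries showed the same order for 6 members (14.3%), against 14.4% of all features. With neighbours separated the WT order held for 30 members (71.4%), against 20.2% of the 5570 features so tested, and the mec1 order for 5, against 14.4%. RFC5 counts among the 27, and it shares windows with POL30.

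**Figure D1:**
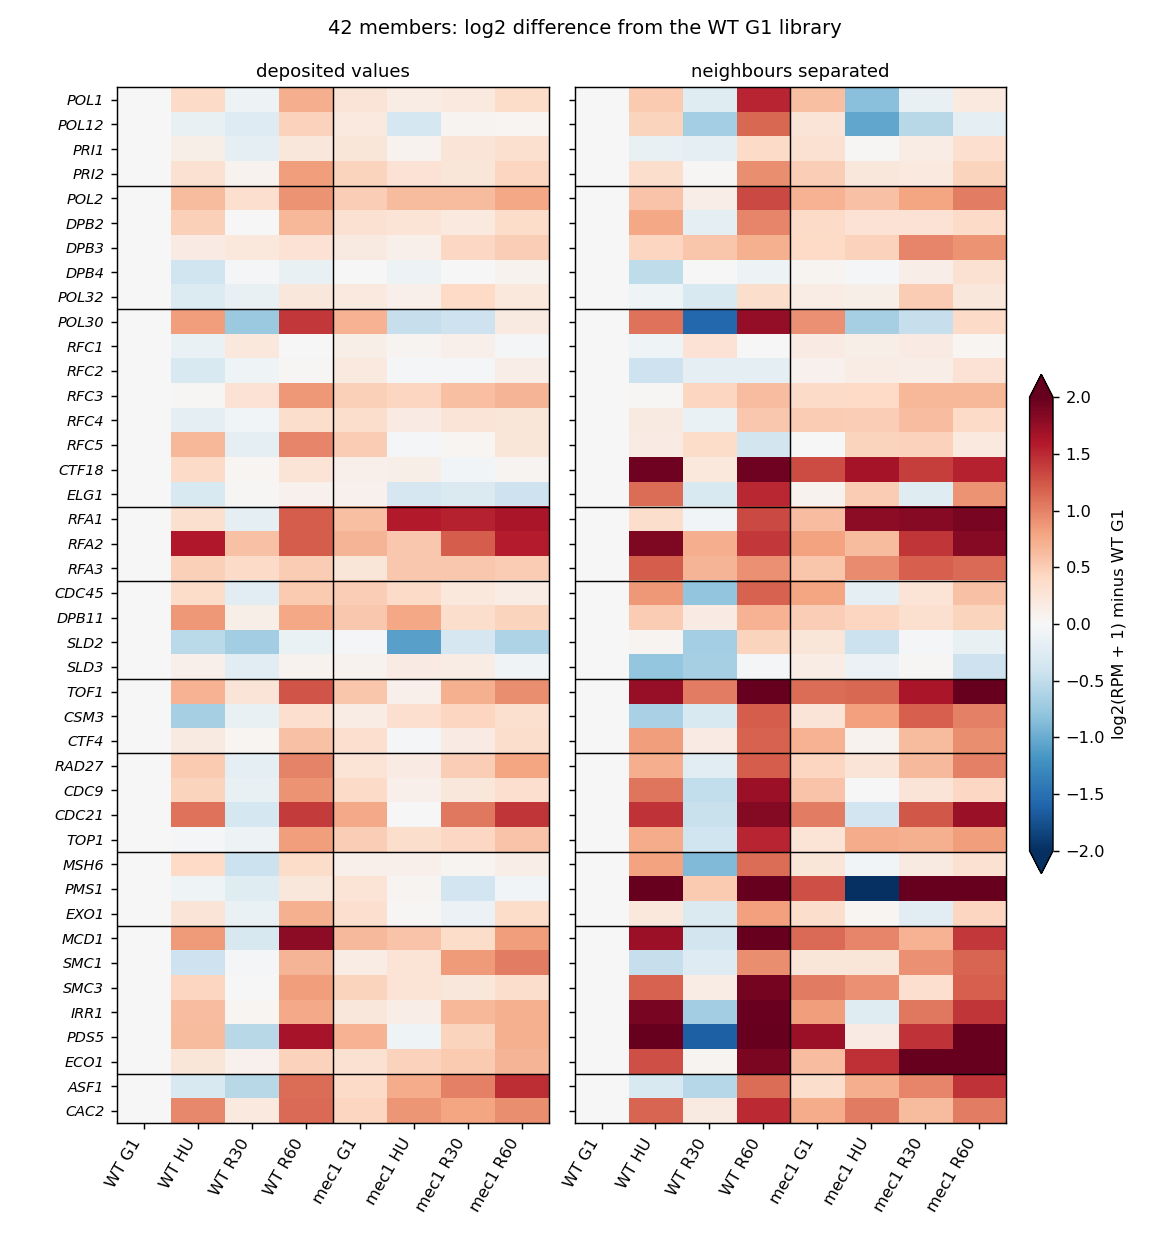
Log2 difference of each of the 42 members from the WT G1 library (colour, log2(RPM + 1), clipped at 2 on either side), in the deposited values (left) and with neighbours separated (right); columns are the 8 single libraries and horizontal lines part the 10 roles. WT R60 is the highest WT library for 34 of 42 members in the deposited values, and the WT columns alternate more than the mec1 columns.

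POL30 encodes PCNA, the sliding clamp (chromosome II, 424990 to 425766, in R64). It was measured at 127, 227, 75.5 and 340 RPM in WT at G1, HU, R30 and R60, and at 206, 91.7, 94.8 and 144 RPM in mec1. WT R60 was the highest and WT R30 the lowest of the 8 libraries. From G1 to HU it differed in WT by 0.83 (0.61 to 1.05) and in mec1 by −1.16 (−1.36 to −0.95). From HU to R30 the WT difference was −1.58 (−1.86 to −1.29) and that of mec1 0.05 (−0.21 to 0.30). WT POL30 thus stood lower at R30 than in the arrested culture, and then differed by 2.16 (1.90 to 2.41) between R30 and R60. Separated values in WT were 174, 371, 58.0 and 591 RPM, those of mec1 were 329, 109, 126 and 227 RPM, and separation kept the order of the WT libraries.

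RFC5, a subunit of the clamp loader, is the neighbour of POL30 (chromosome II, 423765 to 424829) and shares windows with it. In the deposited values it was at 86.5, 138, 75.7 and 171 RPM in WT and at 123, 85.0, 89.1 and 102 RPM in mec1, which run parallel to those of POL30. Separated, they were 92.0, 103, 120 and 71.3 RPM in WT, and in mec1 92.7, 126, 127 and 106 RPM. The order of WT libraries was lost, and the difference between R30 and R60 in WT went from 1.16 to −0.74. Of the other loader subunits, RFC1, the large subunit, ranged over 0.33 across the 8 libraries, the narrowest of all 42 members, with 88.3% own reads. RFC2, RFC3 and RFC4 ranged over 0.50, 0.87 and 0.53. CTF18 and ELG1, the large subunits of alternative clamp loaders, had 27.9% and 8.92% own reads, and their separated values carry that uncertainty.

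RPA has 3 subunits, and the deposited values of RFA1 and RFA2 differed in shape. RFA2 (chromosome XIV, 48287 to 49216) was at 63.4, 195, 95.4 and 148 RPM in WT and at 102, 92.8, 148 and 190 RPM in mec1. In WT the HU library was the highest, and in mec1 it was the lowest. In WT the difference from G1 to HU was 1.60 (1.32 to 1.88), the largest of all members, and in mec1 −0.13 (−0.36 to 0.09). RFA2 has 84.4% own reads, and the separated WT difference was 1.87.

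RFA1, the large subunit (chromosome I, 156754 to 158619), was at 53.0, 66.3, 46.0 and 124 RPM in WT and at 81.2, 162, 156 and 166 RPM in mec1. The 3 mec1 libraries after release lay above every WT library. At HU the strains differed by 1.28 (0.97 to 1.58) and at R30 by 1.74 (1.40 to 2.08), in both cases higher in mec1. From G1 to HU, RFA1 differed in mec1 by 0.99 (0.78 to 1.19) and in WT by 0.32 (−0.05 to 0.69), so that RFA1 and RFA2 stood on opposite sides of the strain comparison in HU. RFA3, the small subunit, ranged over 0.55 in the deposited values and was lowest in WT G1.

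**Figure D2:**
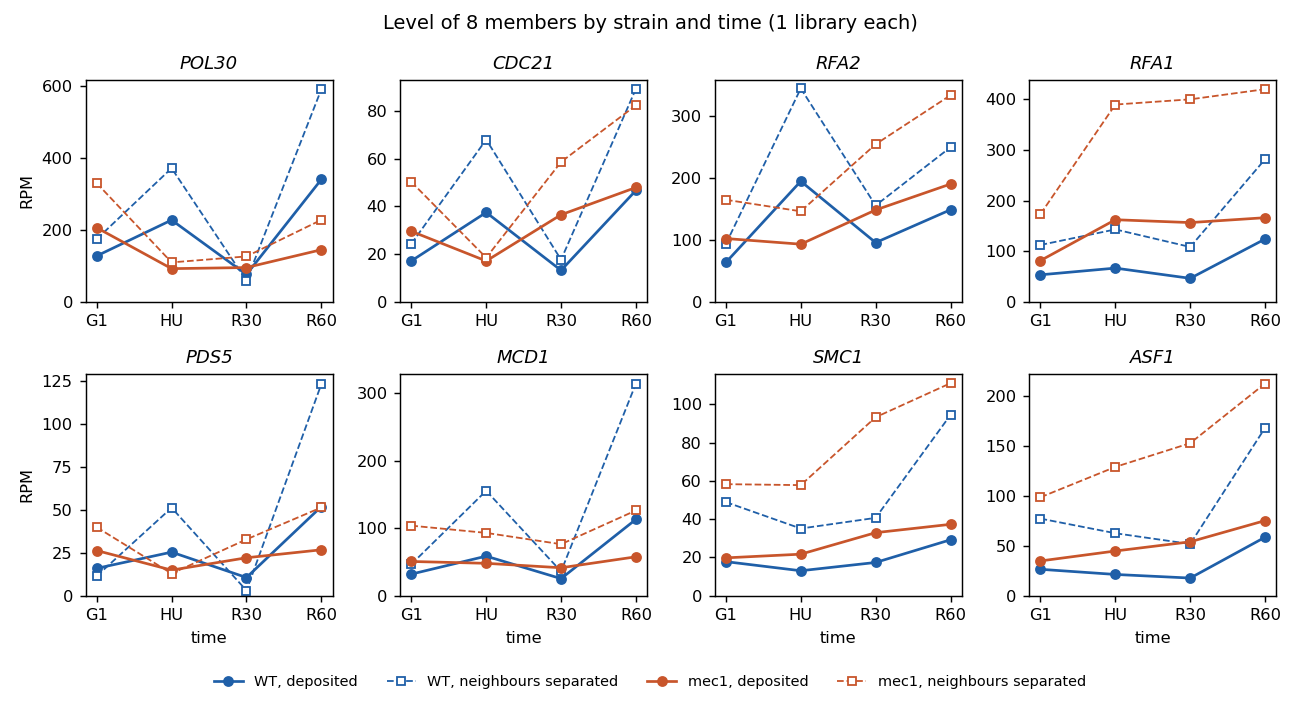
Level of 8 members (RPM, linear axes from 0) at G1, HU, R30 and R60 in WT (blue) and mec1 (orange), 1 library per point; filled circles are deposited values and open squares are values with neighbours separated. POL30 in WT went from 227 RPM in HU to 75.5 RPM at R30 and 340 RPM at R60, while RFA1 was at 156 to 166 RPM in the 3 mec1 libraries after release.

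The enzymes that finish the lagging strand and supply thymidylate showed the WT order in 3 of 4 deposited cases and in all 4 separated ones. CDC21 encodes thymidylate synthase (chromosome XV, 466675 to 467589). It was at 17.1, 37.4, 13.1 and 46.7 RPM in WT and at 29.5, 17.0, 36.4 and 47.9 RPM in mec1. WT and mec1 alternated in which was higher: mec1 at G1 and R30, WT in HU. Subtracting the WT from the mec1 difference between G1 and HU gave −1.85 (−2.60 to −1.09), and for the next step, HU to R30, 2.50 (1.64 to 3.35). At R60 the strains differed by 0.04 (−0.29 to 0.36).

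RAD27, the flap endonuclease (chromosome XI, 224727 to 225875), was at 63.9, 92.6, 55.4 and 128 RPM in WT and at 77.7, 71.4, 90.2 and 111 RPM in mec1. The WT libraries at R30 and R60 were the lowest and highest of the 8, and differed by 1.20 (0.88 to 1.51). CDC9, which encodes DNA ligase I, and TOP1, the type I topoisomerase, differed between R30 and R60 in WT by 1.05 and 0.94 in the deposited values. TOP1 has 28.0% own reads.

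Among the 6 cohesion genes, 5 had the WT order in the deposited and in the separated values, and SMC1 did not. MCD1 encodes the ring-closing kleisin subunit of cohesin (chromosome IV, 444683 to 446383). The gene was at 32, 58.6, 25.3 and 113 RPM in WT and at 50.7, 48.0, 41.4 and 57.6 RPM in mec1. WT R60 differed from WT G1 by 1.79 (1.44 to 2.15), whereas mec1 R60 differed from mec1 G1 by 0.18 (−0.10 to 0.47). Separated WT values were 46.5, 155, 36.0 and 314 RPM.

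PDS5 encodes a regulator that binds the cohesin ring (chromosome XIII, 416196 to 420029). It was at 15.9, 25.3, 10.5 and 51.8 RPM in WT and at 26.2, 14.9, 22.0 and 26.7 RPM in mec1, and had the widest range of all members, 2.19. Its WT R30 library was the lowest and WT R60 the highest of the 8. The separated values ranged further, from 3.01 RPM at WT R30 to 123 RPM at WT R60, and own reads made up 8.37% to 69.6% of the deposited values, depending on the library. A separated difference of 4.95 between those libraries rests on the low value of 3.01 RPM.

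SMC1, an ATPase subunit of cohesin (chromosome VI, 119429 to 123106), was at 17.8, 13, 17.4 and 29.2 RPM in WT and at 19.8, 21.7, 32.9 and 37.3 RPM in mec1. It was the lowest in WT HU and had no higher value in HU than in G1 in WT, the difference being −0.42 (−1.18 to 0.33). Its partner ATPase SMC3 differed by 0.44 in the same comparison, IRR1, another core subunit, by 0.61, and ECO1, the acetyltransferase that establishes cohesion, by 0.25. The 2 ATPase subunits thus had WT differences of opposite sign, although the interval of SMC1 includes 0.

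In chromatin assembly behind the fork, ASF1, a histone chaperone (chromosome X, 196287 to 197126), was at 26.5, 21.3, 17.7 and 58.7 RPM in WT and at 34.9, 44.8, 54.1 and 75.3 RPM in mec1. Each mec1 library was above the WT library of the same time. ASF1 had the highest share of own reads, and its WT values between R30 and R60 differed by 1.67 (1.13 to 2.22). CAC2, a subunit of chromatin assembly factor 1 (chromosome XIII, 68294 to 69700), was at 24.0, 47.8, 27.8 and 53.9 RPM in WT and at 32.8, 45.2, 42 and 46.7 RPM in mec1. It was higher in HU than in G1 in both strains, by 0.96 (0.47 to 1.45) and 0.45 (0.09 to 0.80).

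Of the genes that protect and couple the fork, TOF1 and CSM3 encode partners in 1 complex. TOF1 (chromosome XIV, 122883 to 126599) was at 11.7, 19.4, 14.2 and 29.1 RPM in WT and at 17.6, 12.6, 19.7 and 23.2 RPM in mec1. CSM3 (chromosome XIII, 366981 to 367934) was at 43.4, 27.2, 39.2 and 55.0 RPM in WT and at 48.4, 55.0, 58.6 and 54.3 RPM in mec1. The partners differed from G1 to HU in opposite directions in WT, by 0.69 (−0.05 to 1.43) for TOF1 and by −0.66 (−1.17 to −0.15) for CSM3. CSM3 has 32.7% own reads, and the sign of its difference was the same when neighbours were separated. CTF4, which links polymerase alpha to the helicase, had a WT difference of 0.19 from G1 to HU in the deposited values and of 0.83 separated.

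For polymerase alpha and primase (POL1, POL12, PRI1 and PRI2) the WT difference from R30 to R60 had a median of 0.75 in the deposited values and 1.34 separated. In mec1 the HU minus G1 difference of the same 4 genes had a median of −0.17 in the deposited values and −0.78 separated. For POL1, with 28.5% own reads, it was −0.11 deposited and −1.44 separated, and for PRI2 −0.16 and −0.26. For polymerase epsilon (POL2, DPB2, DPB3, DPB4) and the delta subunit POL32, the WT medians from R30 to R60 were 0.38 deposited and 0.65 separated. DPB4, a small subunit also found in a chromatin remodeler, had a separated difference of −0.12.

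Origin firing proteins activate the replicative helicase, of which CDC45 is a part, and DPB11, SLD2 and SLD3 act in that activation. Their WT difference from R30 to R60 had a median of 0.61, and 0.88 separated, with CDC45 the largest at 0.75 deposited and 1.97 separated. In mec1, SLD2 differed from G1 to HU by −1.04, the lowest value after that of POL30. Mismatch repair genes MSH6, which recognises mismatches, and EXO1, an exonuclease, differed between R30 and R60 in WT by 0.79 and 0.84 in the deposited values and by 2.00 and 1.11 separated, with 37.8% and 77.2% own reads. PMS1, the other member of this group, differed by 0.46 in the deposited values. It has 12.6% own reads, and its separated values are not described singly but enter the separated counts and medians.

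**Figure D3:**
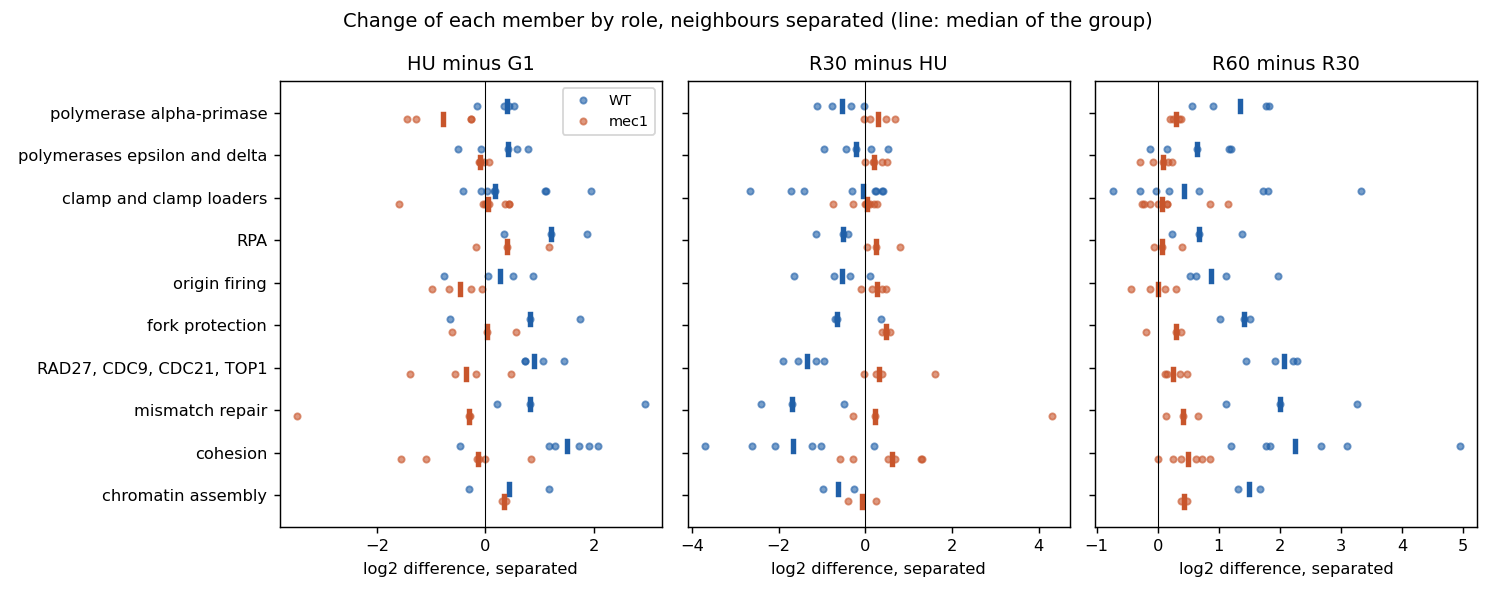
Separated log2 difference of each member (points) by role for HU minus G1, R30 minus HU and R60 minus R30, WT in blue and mec1 in orange; short vertical lines are group medians. From R30 to R60 the WT medians lie at 2.25 for the cohesion genes and 2.07 for RAD27, CDC9, CDC21 and TOP1, against 0.50 and 0.26 in mec1. In the deposited values the same WT medians are 0.78 and 1.12.

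Over the 42 members, the WT libraries differed from G1 to HU by a median of 0.31, against −0.05 over all features. Positive differences were found for 29 members (69.0%), against 45.1% of all features. A difference of 1 or more was seen for 2 members, RFA2 and CDC21, where 4.5% of all features reached it. From HU to R30 the WT median was −0.31, against 0.02, and 5 members lay at −1 or below (3.43% of all features). From R30 to R60 it was 0.69, against 0.00, and 40 of 42 members were positive, against 50.6% of all features. In that step 9 members differed by 1 or more, against 2.57% of all features. The counting interval lay above 0 for 32 of the 42 members, a count not made over all features. WT R60 stood above WT G1 by a median of 0.70, with 9 members at 1 or more (2.61% of all features).

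In the mec1 libraries the medians were closer to 0. The median from G1 to HU was −0.11, with 12 members positive, 0 at 1 or more (4.7% of all features) and 2 at −1 or below, POL30 and SLD2 (2.31% of all features). From HU to R30 it was 0.06, with 1 member at 1 or more, CDC21 (1.34% of all features), and from R30 to R60 it was 0.13, with 0 members at 1 or more (0.108% of all features). The mec1 change minus the WT change had a median of −0.42 for HU minus G1, 0.38 for R30 minus HU and −0.58 for R60 minus R30, against 0.01, 0.01 and −0.00 over all features. With no replicates, these strain differences could not be tested.

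**Figure D4:**
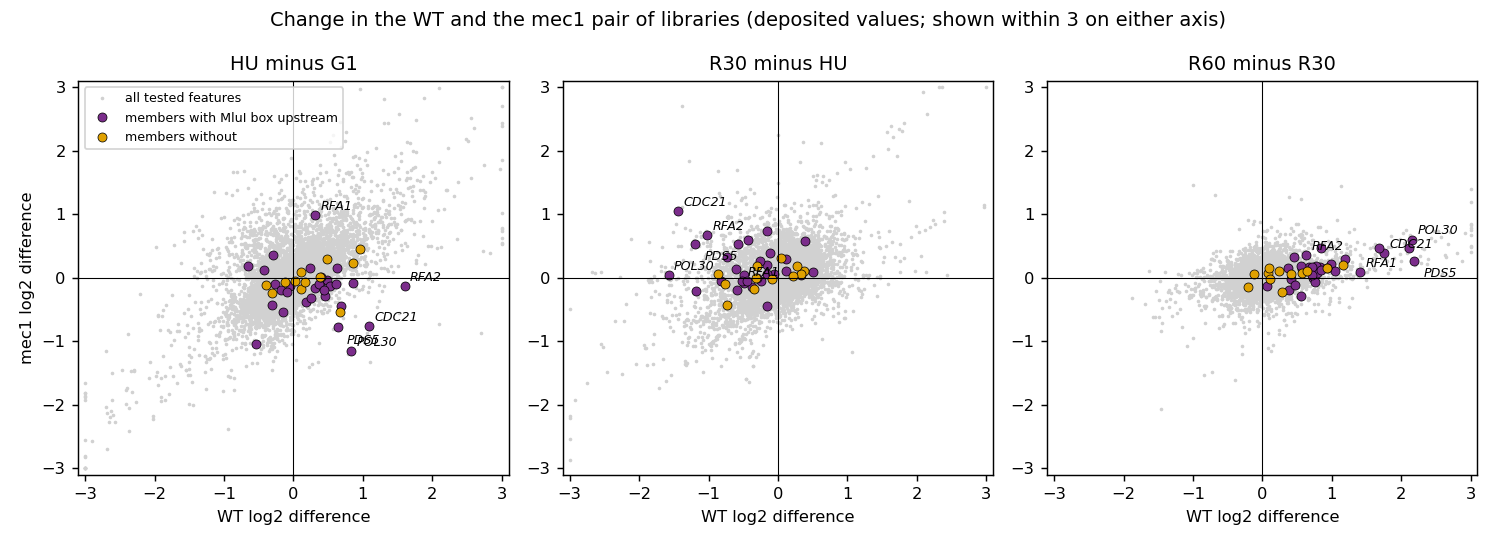
Log2 difference in mec1 (vertical) against that in WT (horizontal) for 3 steps in the deposited values; grey points are all 6504 tested features, clipped at 3, and large points are the 42 members, purple where ACGCGT (the MluI box) lies upstream and yellow where it does not. From R30 to R60 members spread along the WT axis up to 2.19 (PDS5), and the highest mec1 difference is 0.60 (POL30).

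The 30 members with ACGCGT upstream and the 12 without it differed most in WT. With neighbours separated, the WT median from R30 to R60 was 1.73 with the sequence and 0.21 without it, and in the deposited values 0.76 and 0.26. Over all features the corresponding separated medians were 0.55 for 198 features with it and 0.00 for 5370 without it. From G1 to HU the WT medians with and without it were 0.79 and 0.09 separated, and 0.34 and 0.14 deposited. From HU to R30 they were −0.99 and 0.12 separated, and −0.40 and −0.20 deposited, so that the sign for members without the sequence depended on the separation. In mec1 the separated medians were −0.17 and 0.04 from G1 to HU, 0.38 and 0.08 from HU to R30, and 0.33 and 0.06 from R30 to R60. The deposited ones were −0.13 and −0.06, 0.08 and 0.04, and 0.17 and 0.08. Members without the sequence are RFC1, RFC2, RFC3, RFC5, PRI1, DPB3, DPB4, CTF18, RFA3, DPB11, SLD3 and CAC2. In WT, deposited values of PRI1, RFC5, CTF18, RFA3, DPB11, SLD3 and CAC2 were higher in HU and at R60 than at G1 and R30. With neighbours separated this held for CTF18, RFA3, DPB11 and CAC2.

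**Figure D5:**
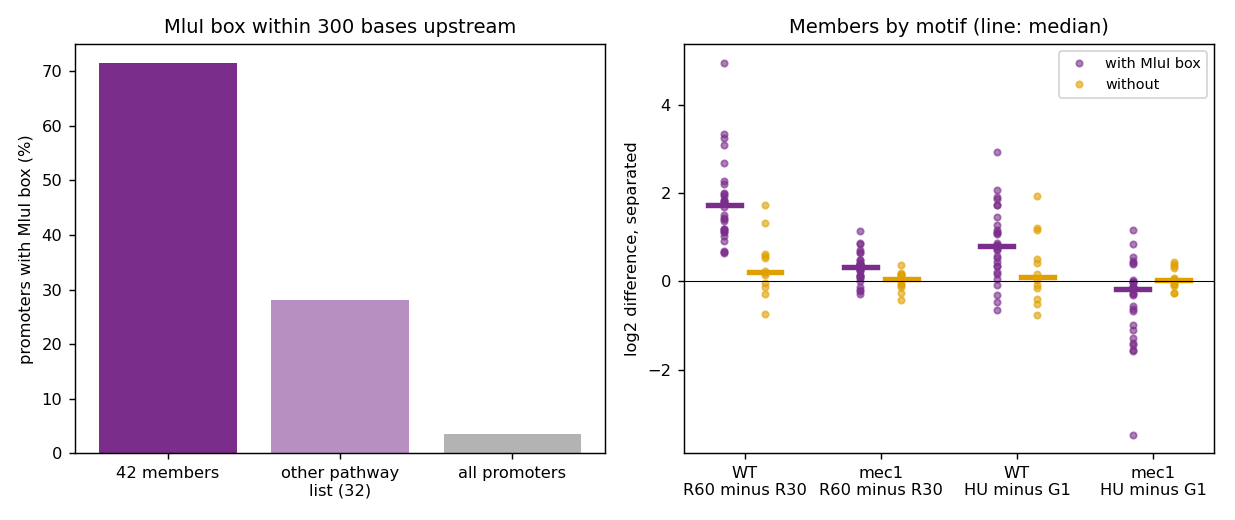
Left, percentage of promoters that hold ACGCGT (the MluI box) within 300 bases before the start codon for the 42 members (71.4%), a list of 32 other genes of the pathway (28.1%) and all promoters (3.5%). Right, separated log2 difference of each member with (purple) and without (yellow) the sequence, lines being medians: 1.73 and 0.21 in WT from R30 to R60, where the deposited medians are 0.76 and 0.26.

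Between the strains, 41 of 42 members were higher in mec1 than in WT at G1, by a median of 0.32, where 62.8% of all features were higher and their median was 0.06. No member reached a difference of 1 there (0.4% of all features did). In HU the median was −0.07, with RFA1 and ASF1 at 1 or more (5.18% of all features) and POL30, CDC21 and RFA2 at −1 or below (1.51%). At R30, 38 members were higher in mec1, median 0.34, where 63.5% of all features were and their median was 0.13. At R60 11 members were higher, median −0.21, where 61.0% of all features were and their median was 0.10. For MCD1, PDS5 and POL30 the R60 differences were −0.96, −0.93 and −1.23, while for CDC21, RFA1 and RFA2 they were 0.04, 0.42 and 0.35.

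Markers of the cell cycle moved with the R60 libraries. Between R30 and R60 in WT, the G1 cyclin gene CLN2 went from 11.2 to 132 RPM, the S-phase cyclin gene CLB6 from 16.1 to 35.0 RPM, EGT2, a cell separation gene, from 17.6 to 400 RPM and SIC1, an inhibitor of S-phase cyclins, from 29.0 to 126 RPM. The mitotic cyclin genes CLB1 and CLB2 went from 41.8 to 25.4 RPM and from 106 to 42 RPM, and the histone genes HTA1 and HTB1 from 298 to 281 RPM and from 205 to 159 RPM. In mec1 the same step took CLN2 from 25.1 to 36.2 RPM, CLB6 from 8.91 to 14.1 RPM, EGT2 from 35.0 to 81.0 RPM, SIC1 from 35.8 to 61.4 RPM and CLB2 from 83.6 to 70.9 RPM. CLB1, HTA1 and HTB1, lower at R60 than at R30 in WT, were higher there in mec1, at 19.2 and 23.5 RPM, 262 and 305 RPM, and 159 and 193 RPM. The G1 libraries also differed: CLN2 was at 35.3 RPM in WT and 76.1 RPM in mec1, and CLB6 at 1.14 and 6.99 RPM. HTA1 was at 270 and 384 RPM there, and HTB1 at 122 and 204 RPM. The part of cell cycle position in the members' differences was not tested.

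A change shared by both strains was tested with limma, in which strain and time are additive terms, so that the error of a shared change comes from the unevenness between the strains, and not from spread between cultures. With Benjamini-Hochberg adjustment over 6504 features, 0 of 42 members were called in any contrast. Features called were 591 from G1 to HU (9.09%), 56 from HU to R30 (0.861%), 62 from HU to R60 (0.953%), 0 from R30 to R60 (0% called), 103 from G1 to R60 (1.58%) and 18 between the strains (0.277%). At an unadjusted p under 0.05 the numbers of members in that order were 4, 1, 5, 10, 13 and 5, where 31.2%, 16.8%, 16.8%, 4.01%, 19.8% and 27.0% of all features passed. A miss does not show that a member did not differ.

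Fitted changes nearest to a call were those from G1 to HU of SLD2, −0.79 (SE 0.23, adjusted p = 0.0756 in limma), RFA3, 0.39 (SE 0.12, adjusted p = 0.0824 in limma), and CAC2, 0.71 (SE 0.22, adjusted p = 0.0858 in limma). Next were RFA1 and ASF1 between the strains, 1.01 (SE 0.22) and 0.83 (SE 0.21), higher in mec1 (adjusted p = 0.0996 for both in limma). SMC1 had a fitted change of 0.93 from HU to R60 (SE 0.21, adjusted p = 0.101 in limma), and CAC2 one of 0.81 from G1 to R60 (SE 0.22, adjusted p = 0.127 in limma). When only the 4 libraries of the times compared were used, SMC1, PDS5 and ASF1 were called from HU to R60, where 2.98% of all features were, and RFA1, RFA2 and ASF1 from G1 to R60, where 2.37% were. Without the HU libraries RFA2 was called from G1 to R60 (1.75% of all features), and without the G1 libraries RFA1 was called between the strains (10.3% of all features), in both cases 1 of 42 members. POL30, with the largest fitted change from R30 to R60 (1.38, SE 0.50, adjusted p = 1 in limma), was not called in any of these.

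The list of 32 other genes of the same pathway, among them POL3, POL31, the GINS subunits and SCC2, also had 0 members called in each of the 6 contrasts by limma. In the WT libraries its median difference from R30 to R60 was 0.22, with 26 of 32 positive, against 0.69 and 40 of 42 for the members. ACGCGT lay upstream of 9 of the 32 (28.1%).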

How the data were processed

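Libraries were made with a stranded mRNA kit and read as pairs of 75 bp, per the labels' protocols and the series description. Reads were aligned with BWA to sacCer3, per the submitters' processing notes, and versions are not given in the sources used here. Log2 RPKM is what the deposited header names, but the numbers are not logged and not divided by length. Multiplied by their windows, the 2459 (mec1 G1) to 4825 (WT HU) smaller values checked per library gave whole numbers of reads to within 0.00014. Larger values were not checked. The deposited values were therefore read as RPM averaged over windows. The standard deviations deposited beside them were read as the spread of signal over those windows, and the deposited number of windows as other information on how each value was made. The number of windows expected from each feature's body and 1000 bp on either side equalled the deposited number for 6326 of 6547 features (96.6%). Reads of neighbours therefore enter a feature's value. Deposited coordinates equal those of RefSeq's R64 for 5 members, differ by 12 bp or less for 29, by 81 to 86 bp for 5 on chromosome X and by 354 to 355 bp for 3 on chromosome XI. Coordinates and sequences printed are those of R64, and all 42 members matched it.

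Values were analysed as log2(RPM + 1) with limma 3.58.1 in R 4.3.3, keeping 6504 features with 1 RPM or more in at least 2 libraries. The count test that the design allowed for was not used, since the values are not counts per gene. The model had 3 residual and 3.82 prior degrees of freedom, a mean-dependent prior, and Benjamini-Hochberg adjustment called under 0.05, two-sided. It was tested on simulated data. Neighbours were separated by non-negative least squares (scipy 1.17.1) on window averages, with the 5896 features that RefSeq annotates as sources, each lengthened by 100 bp at both ends. The standard deviations predicted from the separated values correlated with the deposited ones at 0.961 to 0.968 across features, which are not independent replicates. Their median absolute log2 difference was 0.181 to 0.197 over all features, by library. Among members it was largest over the libraries for RAD27 (0.94), PRI2 (0.77) and SLD2 (0.72). These are the 3 members on chromosome XI with coordinates offset by 354 to 355 bp, and the part of that offset was not tested.

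Members, roles and lists were chosen with earlier results of these data known. Values in every library are given for the 12 members with the widest range and the 3 highest and 3 lowest in the strain difference of the HU response (13 in all). Other members are given as ends of their group or were named after their values were seen. Reads carry no molecular identifiers, so intervals cover counting error only, based on the reads of an average window. Alternatives were other pseudocounts, filters, scalings and priors, separated values, and fits without libraries.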

Additional observations from a re-analysis of the deposited data

Results flagged for a closer look

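Members are listed here where WT and mec1 differed in opposite directions over the same step, each beyond counting error. There are 1 library per strain and time, so the difference between the strains was not tested. The rule was applied to the members only, so no share over all features stands beside these counts. From G1 to HU it held for 4 members. POL30 differed by 0.83 in WT and −1.16 in mec1, and RFC5, which shares windows with it, by 0.67 and −0.53, although the strain difference of RFC5 turned to 0.27 with neighbours separated. CDC21 differed by 1.09 and −0.76, and PDS5 by 0.64 and −0.78.

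From HU to R30 it held for 4 members, with lower values in WT and higher ones in mec1. RFA2 differed by −1.02 and 0.67, RAD27 by −0.73 and 0.33, CDC21 by −1.45 and 1.05, and the cohesin gene IRR1 by −0.58 and 0.53. From R30 to R60 it held for 0 members. CDC21 was the member found in both steps.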

How the results depend on the processing

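Features called from G1 to HU went from 591 to 270 with neighbours separated, 227 with only the 4 libraries compared and 218 without the R30 libraries. From HU to R30 they went from 56 to 3 without the mean-dependent prior, 22 separated, 17 with only the 4 libraries and 28 without G1. From HU to R60 they went from 62 to 115 with libraries centred on their medians, 32 without that prior, 31 separated, 194 with only the 4 libraries, 32 without G1 and 4 without R30. From G1 to R60 they went from 103 to 63 separated and 53 without R30, and between the strains from 18 to 10 separated, 669 without G1 and 7 without R30 or without R60. Members called went from 0 to 3 with only the 4 libraries compared, both from HU to R60 and from G1 to R60, to 1 from G1 to R60 without HU, and to 1 between the strains without G1. Fitted changes turned to 0.10 for DPB11 from HU to R60 and 0.026 for SLD2 from G1 to R60 when separated. Medians of the members went to −0.0084 for mec1 R60 minus G1 with quantile normalization and −0.0055 with centring, and when separated to 1.35 for WT R60 minus R30 and 1.18 for WT R60 minus G1. The median of mec1 R30 minus G1, −0.05, turned to 0.064 separated, to 0.022 with all features as sources and to 0.13 over members with 50% or more own reads. The last 2 were chosen after seeing the data. RFC5 turned, when separated, to −0.74 for WT R60 minus R30, and to 0.27 and 0.55 for the strain differences of HU minus G1 and R60 minus G1. The cause of the other moves was not tested. Of 1300 single-library differences of the 13 members given in full under an alternative, 1219 stayed within the counting interval of the reported value. These alternatives pool other pseudocounts, quantile normalization, centring and separation. Only separation re-estimates a gene's own reads, and the count is not split by setting. Over all 42 members, separation changed the sign of 8 differences from G1 to HU, 5 from HU to R30 and 2 from R30 to R60 in WT, and of 12, 11 and 6 in mec1. No paired analysis was possible because each strain and time has 1 library and the labels carry no replicate numbers; strain is a term of the model. Depth limits members under about 20 RPM, such as TOF1, SMC1 and PDS5, whose counting intervals are the widest.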

Other observations

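Members of 1 complex did not all share 1 profile. Across the 8 libraries, the deposited values of RFA1 were highest in mec1 R60, those of RFA2 in WT HU and those of RFA3 in mec1 HU. The lead was small for RFA2, 195 against 190 RPM in mec1 R60, and for RFA3, 203 against 201 RPM in mec1 R30. With neighbours separated, RFA3, with 42.2% own reads, had its highest values in WT HU and mec1 R30, both at 197 RPM. POL30, the clamp and not a loader subunit, ranged over 2.16, while the loader subunit RFC1 ranged over 0.33. Among the cohesin genes, MCD1, SMC3, IRR1 and PDS5 were highest in WT R60, and SMC1 and ECO1 in mec1 R60. These are orders of single libraries and were not tested.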
